A study of Mus musculus with 6 samples.

Results

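The heat shock proteins and chaperonins of mouse neural stem cell lines are described here, with the levels of their transcripts in lines labelled FoxO-null and in those labelled wild-type. The members were the genes whose symbol in the platform annotation began with Hspa, Hspb, Hspd, Hspe, Hsph, Hsp90, Dnaj or Cct2 to Cct8, without Hspg2 and Hspbap1, and whose probe sets were named for a single gene. This rule gave 80 of the 18193 genes that had such a probe set. By the place of their protein, 43 were cytosolic, 10 belonged to the endoplasmic reticulum (ER), 7 to mitochondria, and 20 to other places or to a place that was not assigned. Each gene was represented by its probe set of highest mean signal over the arrays. A filter on low signals left 69 members among 12663 genes tested: 36 cytosolic, all 10 of the ER, all 7 of mitochondria and 16 of the rest. Hsp90ab1, the constitutive cytosolic HSP90 gene, and Dnajc19 were not analysed here.

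Chaperones bind unfolded proteins and keep them from aggregating while they fold. HSP70 proteins do this in cycles of ATP hydrolysis that J proteins (the Dnaj genes) start and nucleotide exchange factors such as the HSP110 proteins end, and HSP90 proteins act later on kinases, receptors and other clients. Chaperonins are barrel-shaped complexes that enclose a protein: CCT, also called TRiC, in the cytosol folds actin and tubulin, and HSP60 with its lid HSP10 acts in mitochondria. Cytosolic stress raises chaperone transcripts through the heat shock factor HSF1, and stress in the ER does so through the unfolded protein response.

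The series compared 6 independent neural stem cell lines, 3 called FoxO null and 3 called wild type, with 1 Affymetrix array and 6 ug of total RNA per line. FoxO proteins are forkhead transcription factors that insulin and growth factor signals keep out of the nucleus. Which FoxO genes were removed, with which Cre, and from animals of what age and strain is not given in the labels, and no treatment is named for either group. Of 9 probe sets for Foxo1, Foxo3 and Foxo4, 8 had a positive log2 fold change (lines labelled FoxO-null minus lines labelled wild-type), and 5 of them read higher in every FoxO-null line than in any wild-type line. For Foxo1 the strongest probe set gave 77.9, 77.8 and 100.3 in FoxO-null lines 1 to 3, against 20.3, 20.4 and 31.7 in the wild-type lines. Where these probe sets lie relative to any deleted exon was not known, so they may not check the deletion. The transcripts thus went against the labels. Whether the groups were exchanged cannot be told from these values; if they were, every direction below would turn, and each is given for the lines as labelled. The neural stem cell markers Sox2, Nes, Vim, Fabp7, Slc1a3, Pax6, Msi1, Prom1 and Hes5 were above the highest bacterial control probe set of the array on all 6 arrays. The 5' probe set for 18S ribosomal RNA stood at 211 in wild-type 1, with 23.5 to 38.9 elsewhere. The ratio of 3' to 5' signal lay between 0.789 and 0.928 for Gapdh and between 1.03 and 1.12 for Actb.

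The promoters of these genes are known for their stress elements, and RefSeq windows of 300 bases (250 before to 50 after the annotated start, GRCm38.p6) were found for 66 of the 80 members. The first pair printed here is that of Hspa1a and Hspa1b, the stress-inducible HSP70 genes, whose signals varied together across the lines. Their windows, at chr17:34972107-34972406 and chr17:34959189-34959488 on the minus strand, differed at 4 of 300 bases (98.7% identical). The differing bases are in capitals.
Hspa1a: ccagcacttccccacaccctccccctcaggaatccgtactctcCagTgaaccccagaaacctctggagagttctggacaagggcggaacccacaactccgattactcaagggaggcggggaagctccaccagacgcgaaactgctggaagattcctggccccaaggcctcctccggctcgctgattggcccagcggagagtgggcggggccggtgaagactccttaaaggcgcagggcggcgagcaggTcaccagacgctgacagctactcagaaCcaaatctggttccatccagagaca
Hspa1b: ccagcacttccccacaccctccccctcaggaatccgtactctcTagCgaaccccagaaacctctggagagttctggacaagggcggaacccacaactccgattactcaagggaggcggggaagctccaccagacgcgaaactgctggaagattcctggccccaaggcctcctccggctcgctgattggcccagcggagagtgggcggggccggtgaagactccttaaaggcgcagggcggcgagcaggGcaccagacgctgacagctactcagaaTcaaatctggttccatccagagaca
A window that 2 mitochondrial genes share is printed next. Hspd1 codes for HSP60 and Hspe1 for its lid HSP10, the genes face away from each other, and 285 of the 300 bases of the Hspe1 window also lie in a window of Hspd1. The stretch is shown as the Hspe1 window, chr1:55087898-55088197 on the plus strand, with matches to the heat shock element in capitals.
Hspe1: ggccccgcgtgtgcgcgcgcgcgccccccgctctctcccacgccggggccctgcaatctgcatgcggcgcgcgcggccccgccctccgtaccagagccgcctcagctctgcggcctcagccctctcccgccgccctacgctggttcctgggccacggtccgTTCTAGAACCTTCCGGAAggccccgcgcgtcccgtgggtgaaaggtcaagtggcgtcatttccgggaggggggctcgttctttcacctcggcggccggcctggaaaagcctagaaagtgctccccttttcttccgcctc
The heat shock element was searched on both strands as GAA, TTC and GAA, each 2 bases apart, and 2 overlapping matches form the run in capitals. This motif was present in 4 of the 66 members with a window (Hspd1, Hspe1, Hsph1 and Dnajb6), 6.06%, and in 0.662% of 27025 genes with a window. The run that Hspd1 and Hspe1 share was counted for each of them. The third set shows the ER stress element, searched on both strands as CCAAT and CCACG with 9 bases between them, all in capitals. It was in the windows of Hspa5, Hsp90b1 and Dnajc3, which are 3 of the 9 ER members with a window (33.3%), in none of the other members, and in 0.137% of all genes. The Hspa5 window lies at chr2:34771840-34772139 on the plus strand and the Hsp90b1 window, with 2 separate matches, at chr10:86705395-86705694 on the minus strand.
Hspa5: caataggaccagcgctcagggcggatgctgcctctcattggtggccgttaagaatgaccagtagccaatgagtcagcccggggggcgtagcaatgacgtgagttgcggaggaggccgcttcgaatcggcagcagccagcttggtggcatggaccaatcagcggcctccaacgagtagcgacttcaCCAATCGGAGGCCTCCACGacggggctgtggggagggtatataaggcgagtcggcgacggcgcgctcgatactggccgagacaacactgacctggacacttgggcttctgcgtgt
Hsp90b1: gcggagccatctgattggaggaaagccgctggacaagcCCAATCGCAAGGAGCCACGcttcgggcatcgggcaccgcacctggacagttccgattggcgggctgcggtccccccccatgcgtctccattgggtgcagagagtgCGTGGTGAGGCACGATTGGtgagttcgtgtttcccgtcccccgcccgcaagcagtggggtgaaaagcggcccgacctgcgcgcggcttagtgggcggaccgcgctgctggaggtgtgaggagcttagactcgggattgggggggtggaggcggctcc
The forkhead element GTAAACA, searched on both strands, which FoxO proteins are known to bind, was in 3 of 66 members (Dnajb12, Dnajc10 and Dnajc6), 4.55%, against 4.05% of all genes. A match in these windows is a run of letters and not a measured binding site, and the lack of one says only that the letters are not in the window.

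The main pattern among the members was a modest lower level of some chaperones in the lines labelled FoxO-null. These were the cytosolic chaperonin, Hsp90aa1, Hsph1, and mitochondrial Hspd1 and Dnajc11. Hspa4 was also lower, but in 1 of its probe sets alone. In 9 of the 10 ER chaperones and in the constitutive HSP70 gene Hspa8 the groups overlapped. Over all genes, 16% had groups that did not overlap. None of the 69 members tested passed the threshold of limma (adjusted p under 0.05 over all genes), which 0.0395% of all genes passed. The smallest adjusted p of a member in limma was 0.308, for Cct8. Without adjustment, 8 of the 69 members had a limma p under 0.05, close to the share of 10.2% over all genes. Of these, 7 were lower (Cct7, Cct8, Hsp90aa1, Hspa4, Hspd1, Dnajc11 and Dnajc8, beside 4.9% of all genes). Dnajb8 was higher, beside 5.31% of all genes. Without FoxO-null 1, 3 of 68 members were lower and 1 was higher by that measure, beside 412 lower and 398 higher of 12629 genes. The 3 FoxO-null arrays lay below all 3 wild-type arrays in 14 members, 20.3% of those tested against 7.93% of all genes. They lay above them in 3 (Dnajb8, Hspb3 and Dnajc12), against 8.08% of all genes. Of these 3, Dnajb8 passed the filter on low signals only through its FoxO-null arrays. With the mean over all probe sets, 11 of 67 members (16.4%, against 7.8% of all genes) lay below. By that measure 5 lay above, against 954 of 11804 genes. The median log2 fold change was -0.042 over the members and 0.0099 over all genes, and 41 members were negative and 28 positive, beside 48.2% and 51.8% of all genes. Leaving out FoxO-null 3 moved the members' median to -0.070, leaving out wild-type 1 moved it to -0.11, and leaving out wild-type 2 gave -0.084. With wild-type 3 left out, 35 of 69 were negative. When each array was centred on its median instead, 52 of the 69 members were negative, beside 59% of all genes. The unadjusted calls among the members were then 1 higher and 11 lower. Over all genes those calls went from 672 higher and 620 lower to 327 higher and 720 lower. The median within-group SD on the log2 scale was 0.17 for the members and 0.24 for all genes, which were not matched to the members by signal. RNA of whole cultures was measured, so fewer cells of a type and less RNA per cell cannot be told apart.

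**Figure D1:**
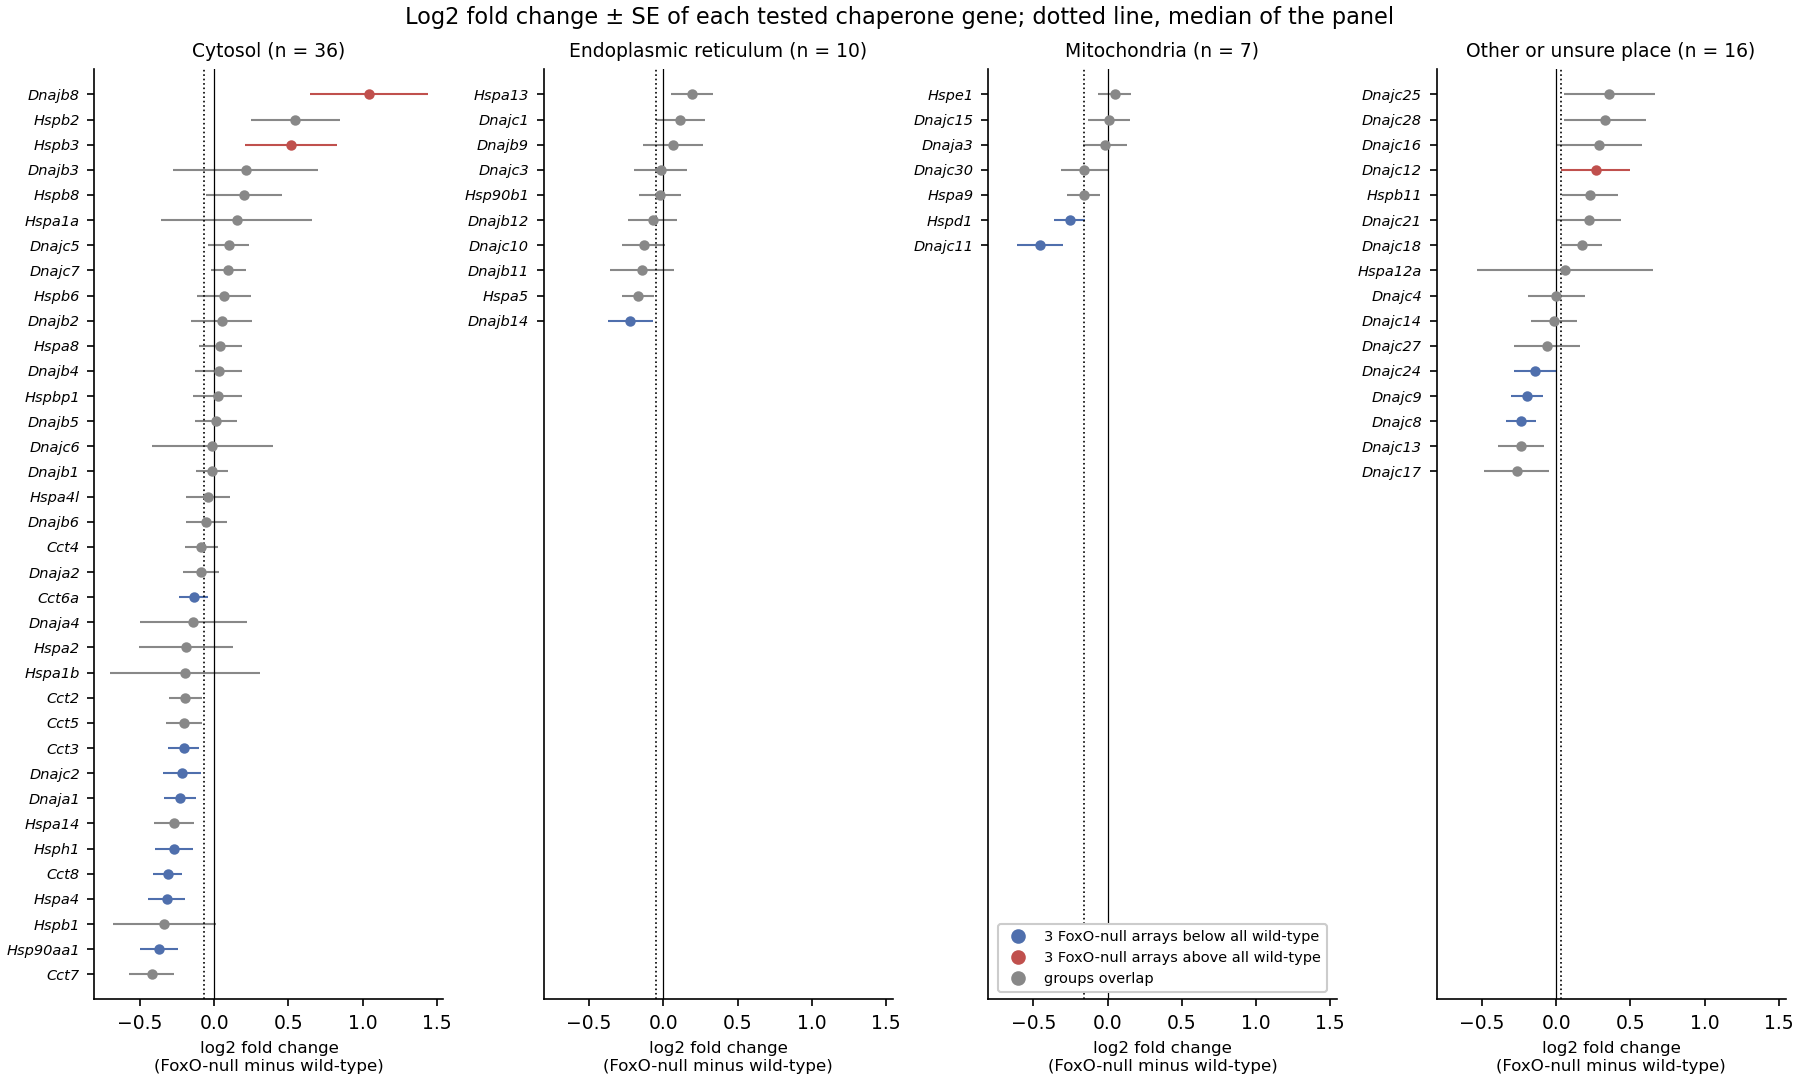
Log2 fold change (lines labelled FoxO-null minus lines labelled wild-type, x axis) ± SE of each of the 69 tested members, in 4 panels by the place of the protein. Blue points are the 14 genes whose FoxO-null arrays all lay below the wild-type arrays, red points the 3 genes with the opposite order, grey points genes whose groups overlap, and the dotted line is the median of the panel. Most blue points are cytosolic, and the ER panel has 1.

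The subunits of the cytosolic chaperonin were the most uniform family. CCT is built from 8 different subunits, of which Tcp1, the first, is outside the symbol rule and was taken from a list of co-chaperones. All 8 had a negative log2 fold change, beside 48.2% of all genes. In 4 (Tcp1, Cct3, Cct6a and Cct8) every FoxO-null array was below every wild-type array, beside 7.93% of all genes. Cct8, the theta subunit, read 815, 815 and 812 in FoxO-null lines 1 to 3 and 1022, 986 and 1031 in wild-type lines 1 to 3. Its groups were far apart relative to their spread, 814 ± 1.42 against 1013 ± 23.7 (SD, n = 3 lines each), with a log2 fold change of -0.31 ± 0.10 (SE) and a limma adjusted p of 0.308. Cct7, the eta subunit, read 1003, 1399 and 1278 against 1805, 1787 and 1339.8. Here the groups overlapped, because wild-type 3 lay under FoxO-null 2, and the difference was -0.42 ± 0.15 (limma adjusted p 0.375). A further Cct7 probe set gave -0.29 ± 0.11 with groups that did not overlap.

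Cct3, the gamma subunit, read 2525, 2476 and 2588 against 3041, 2683 and 3039.7 (-0.20 ± 0.10, limma adjusted p 0.538). Cct6a, the zeta subunit, read 2048, 1934 and 1965 against 2236, 2121 and 2188 (-0.14 ± 0.10). These groups were parted by a narrow gap. Cct2, the beta subunit, read 4408, 4372 and 4681 against 4655, 5213 and 5588 and overlapped only between FoxO-null 3 and wild-type 1 (-0.20 ± 0.11). Cct5, the epsilon subunit, read 1501, 1409 and 1649 against 1507, 1892 and 1874 (-0.20 ± 0.12). Cct4, the delta subunit, had the smallest difference of the family, -0.087 ± 0.11, from 1615, 1833 and 1637 against 1931, 1838 and 1638. Tcp1 read 1887, 1911 and 1864 against 2171, 2133 and 2311 (-0.22 ± 0.10, limma adjusted p 0.475). Of 20 probe sets for the 7 member subunits that were above background on all arrays, 19 were negative; the exception was a Cct4 probe set at 0.35 ± 0.27. The summed signal of the 8 subunits was 16142 ± 338 in the lines labelled FoxO-null and 18676 ± 322 in the lines labelled wild-type, a ratio of 0.864. A different Cct4 probe set gave -0.24 ± 0.12 with groups that did not overlap. The median of the 7 member subunits was -0.20 and stayed between -0.27 and -0.15 when any 1 array was left out, with all 7 negative each time. Cct6b, a zeta subunit of testis, was not tested: its signals of 28.4, 10.99 and 21.3 against 10.5, 1.998 and 9.75 were at the level of the bacterial controls on 5 of 6 arrays.

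**Figure D2:**
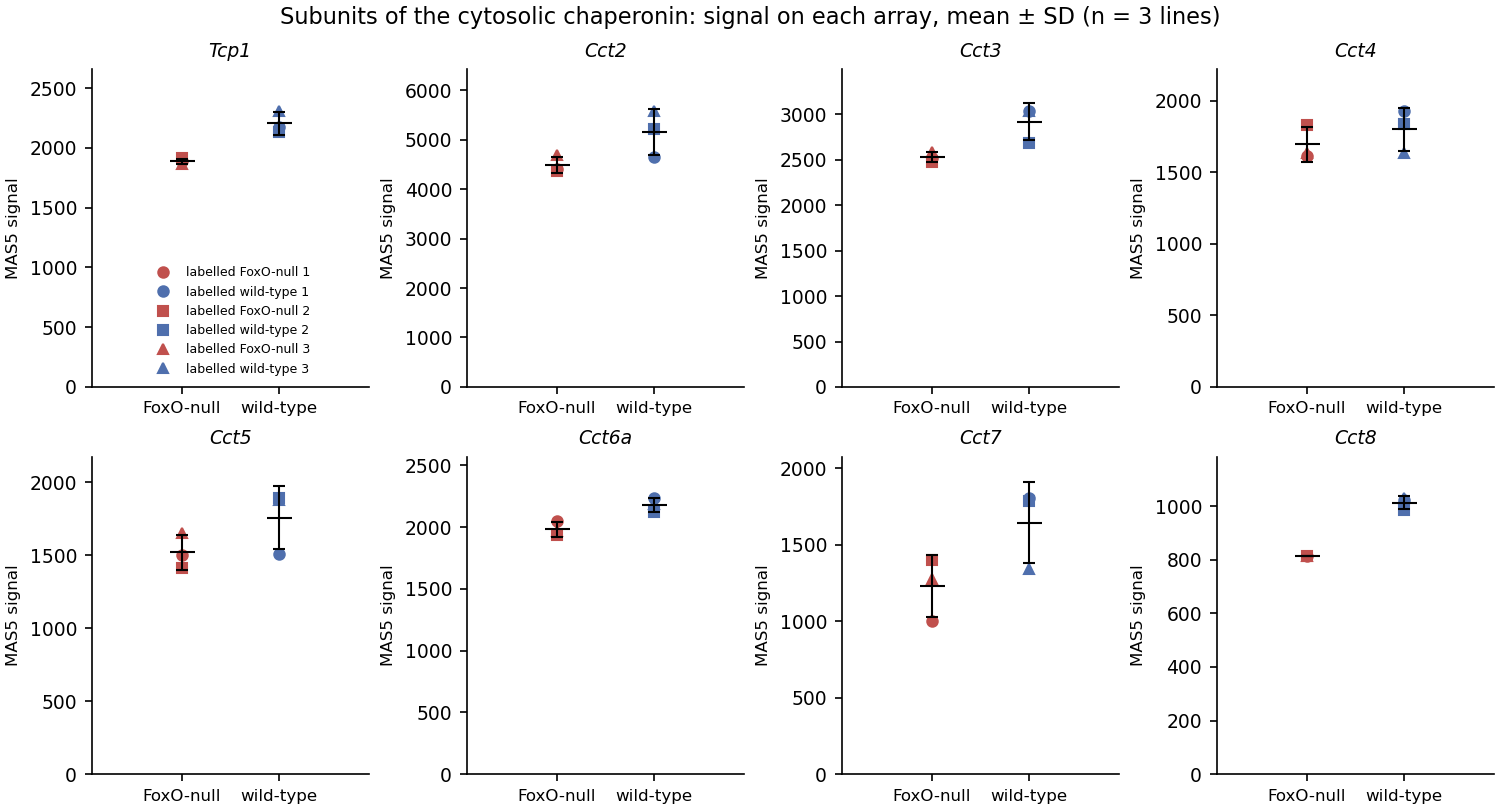
MAS5 signal (y axis, from 0) of each of the 8 subunit genes of the cytosolic chaperonin on the 6 arrays, with symbols for the line number and black bars for mean ± SD of 3 lines per group. The means of the lines labelled FoxO-null are below those of the lines labelled wild-type in all 8 panels, with the largest fold difference for Cct7 (1227 against 1644) and the smallest for Cct4 (1695 against 1802).

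Hsp90aa1 and the HSP110 genes Hsph1 and Hspa4 lay lower on all arrays labelled FoxO-null. Hsp90aa1, the stress-inducible HSP90 gene, read 2294, 2801 and 2921 in FoxO-null lines 1 to 3 and 3371, 3858 and 3123 in wild-type lines 1 to 3. These groups were fully parted, by -0.37 ± 0.13 on the log2 scale (limma adjusted p 0.356). The other Hsp90aa1 probe sets above background on all arrays were also parted, at -0.25 ± 0.12 and -0.19 ± 0.11. The HSP110 proteins release ADP from HSP70. Hsph1, the stress-inducible one, read 267, 257 and 318 against 350.5, 330.1 and 336, with groups that did not overlap and a difference of -0.27 ± 0.13 (limma adjusted p 0.504). Its second probe set gave a larger difference of -0.63 ± 0.18. Hspa4 read 574, 538 and 507 against 788, 602 and 648, a difference of -0.32 ± 0.13 (limma adjusted p 0.412). That difference was seen in this probe set alone: further Hspa4 probe sets gave -0.017 ± 0.16 and -0.0090 ± 0.15, and the mean over all its probe sets gave -0.072. Hspa4l, the third HSP110 gene, differed by -0.042 ± 0.15.

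Among the cytosolic HSP70 genes, no difference between the groups stood out from the spread between lines. Hspa8, the constitutive HSP70 that also uncoats clathrin, read 6582, 6779 and 7434 against 6184, 5884 and 8358, with the highest and the lowest values both in wild-type lines (0.042 ± 0.14, limma adjusted p 0.948). Hspa14, a ribosome-associated HSP70, read 291, 339 and 309 against 441, 363 and 336, and its groups overlapped by the narrow margin between FoxO-null 2 and wild-type 3 (-0.27 ± 0.14). Hspa2, best known from testis, read 33.6 on FoxO-null 3 and between 66.7 and 92.1 on the other arrays (-0.19 ± 0.32).

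In the stress-inducible genes Hspa1a, Hspa1b, Hspb1 and Dnajb1 the groups overlapped, unlike in Hsp90aa1 and Hsph1. Hspa1a read 56.5, 67.7 and 225 in FoxO-null lines 1 to 3 and 39.95, 168 and 91.2 in wild-type lines 1 to 3. Hspa1b read 98.4, 119.5 and 428 against 119.8, 400.5 and 161. Both were highest in FoxO-null 3, followed by wild-type 2 and then wild-type 3, and the highest line exceeded the lowest 5.63-fold for Hspa1a and 4.35-fold for Hspa1b. Over the 6 arrays their log2 ranges were wider than those of 97.5% and 95.5% of the genes tested. The group differences were 0.15 ± 0.51 and -0.19 ± 0.50, with limma adjusted p of 0.946 and 0.931. The genes are near-identical copies, as the windows printed above show for their promoters. A probe set named for one may therefore take up transcripts of the other. The genes are thus not independent observations, although each is counted as a member in the counts, medians and sums given here. Hspb1, a small heat shock protein that stress also induces, read 46.7, 87.1 and 142 against 72.1, 116 and 147, with wild-type 3 and FoxO-null 3 at the top (-0.33 ± 0.35). Dnajb1, the HSP40 that works with inducible HSP70, behaved otherwise. Its probe set of highest signal read 497, 441 and 478 against 469, 467 and 494, a highest over lowest ratio of 1.12. The log2 range of that probe set was wider than that of only 0.813% of the genes tested. A second Dnajb1 probe set was less steady, at 267, 319 and 252 against 341, 268 and 344 (-0.18 ± 0.14). High Hspa1a and Hspa1b thus came without a high Dnajb1 in the same line.

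Of 10 genes that textbooks list as induced by HSF1, 7 were negative and 3 positive, with a median of -0.21. Hspa1a and Hspa1b are both in this list, the first counted as positive and the second as negative. The arrays labelled FoxO-null lay below the others in 4 of the 10 (Hsp90aa1, Hsph1, Hspd1 and Dnaja1), beside 7.93% of all genes. Immediate early genes, which handling of cells also induces, had a summed signal between 4437 and 4997 on the FoxO-null arrays and between 4093 and 5608 on the wild-type arrays over 13 genes, so these sums overlapped. The highest sum was that of wild-type 2, and Ier3 and Btg2 made up the largest share of the sums. Of 11 tested genes of this list, 3 had an unadjusted limma p under 0.05, beside 10.2% of all genes. Egr1 (-0.55 ± 0.19) and Ier2 (-0.44 ± 0.19) were lower with groups that overlapped, and Jun (0.26 ± 0.11) was higher on all FoxO-null arrays. None passed over all genes. Their part in the line-to-line values was not tested.

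**Figure D3:**
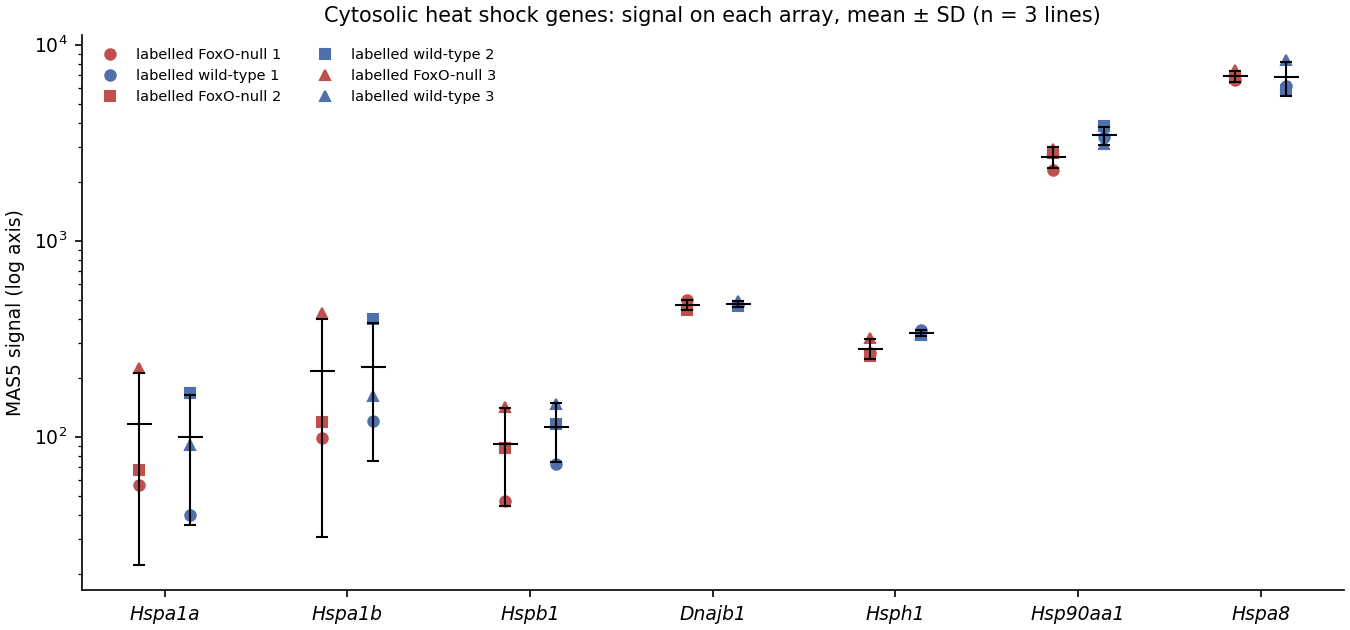
MAS5 signal (log y axis) of 7 cytosolic heat shock genes on the 6 arrays, with symbols for the line number and black bars for mean ± SD of 3 lines per group; signals of different genes come from different probe sets and are not compared with each other. Hspa1a and Hspa1b are highest in FoxO-null 3 (225 and 428) and wild-type 2 (168 and 400.5), while the Dnajb1 probe set shown stays between 441 and 497.

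The cytosolic J proteins, which choose the substrates of HSP70, were split evenly, with 7 of 14 tested members negative and a median of -0.00043. Dnaja1, a general HSP70 partner, read 946, 1059 and 897 against 1199, 1062 and 1141, and the groups were parted only by the gap between FoxO-null 2 and wild-type 2 (-0.23 ± 0.11, limma adjusted p 0.514). Further Dnaja1 probe sets were at -0.14 ± 0.19 and -0.022 ± 0.12 with groups that overlapped. Dnajc2, a J protein at the ribosome, read 272, 304 and 326 against 339, 328 and 382 (-0.22 ± 0.13), again with a narrow gap. Dnaja2, Dnajb4, Dnajb5, Dnajb6, Dnajb2, Dnajc5, Dnajc7 and Dnaja4 had overlapping groups and differences between -0.14 and 0.097 in the probe sets used. A further probe set of Dnaja2 (-0.24 ± 0.11) and one of Dnajc5 (-0.41 ± 0.18) had all FoxO-null arrays below the wild-type arrays. The rest of the further probe sets of these genes overlapped. Dnajb6, which keeps aggregating proteins soluble, was at -0.053 ± 0.14, and Dnajc5, the cysteine string protein of synaptic vesicles, at 0.097 ± 0.14. Dnajb3 of testis and Dnajc6, or auxilin, had low signals and overlapping groups, at 0.21 ± 0.49 and -0.013 ± 0.41. The nucleotide exchange factor Hspbp1 was at 0.023 ± 0.17.

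Among the small heat shock proteins, which hold unfolded proteins without ATP, 4 of 5 tested members were positive, with a median of 0.20 that was 0.12 without FoxO-null 3 and 0.33 without wild-type 3. With median centring 3 of the 5 were positive, while 59% of all genes were negative. Hspb3, a gene best known from muscle, read 39.7, 35.5 and 59.0 against 21.8, 33.4 and 32.4. Its groups did not overlap (0.52 ± 0.31, limma adjusted p 0.607). Hspb2, its partner in muscle, read 45.6, 38.0 and 70.0 against 25.3, 38.0 and 34.4 (0.55 ± 0.30). These signals are low, and the highest bacterial control, a measure of background, was 19.2, 27.6 and 26.9 in FoxO-null lines 1 to 3 and 14.4, 15.8 and 19.1 in wild-type lines 1 to 3, so background ran in the same direction as these differences. Its part in them was not tested. Hspb8, which works with BAG3, was at 0.20 ± 0.26 and Hspb6 at 0.066 ± 0.18. The same holds for Dnajb8, a testis J protein, which read 25.3, 28.4 and 54.0 against 17.5, 11.9 and 11.7 (1.04 ± 0.40, limma adjusted p 0.399): wild-type arrays 2 and 3 lay under their background level, and Dnajb8 lay above it on 4 of 6 arrays. Its wild-type mean of 13.7 was under the filter on low signals, which it passed only through the FoxO-null arrays. The 11 members not tested read at most 45.9 on any array, and 5 of them (Hspa1l, Hspb7, Hspb9, Hspa12b and Dnajc5g) were at or under background on all 6 arrays. Several of these genes are known from testis or muscle.

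Most ER chaperones had overlapping groups, and over all genes 16% had groups that did not overlap. Of 10 members, 7 were negative and 3 positive. The median was -0.046, and none had an unadjusted limma p under 0.05, beside 10.2% of all genes. Hspa5, or BiP, the ER HSP70 and the sensor-binding chaperone of the unfolded protein response, read 1962, 2090.1 and 2028 in FoxO-null lines 1 to 3 and 2079, 2443 and 2331 in wild-type lines 1 to 3. Only FoxO-null 2 and wild-type 1 overlapped, by a narrow margin, and the difference was -0.17 ± 0.11 (limma adjusted p 0.620). Of its further probe sets, one was lower on all FoxO-null arrays (-0.26 ± 0.12) and one was at 0.096 ± 0.14. Hsp90b1, the ER HSP90 known as GRP94, read 1056, 1295 and 1555 against 1413, 1289 and 1220.2, and both groups had nearly the same mean (-0.021 ± 0.14). Dnajc3, or p58IPK, which the unfolded protein response induces, read 212, 158 and 199.6 against 172, 166 and 241 (-0.016 ± 0.18). Further Dnajc3 probe sets above background on all arrays were at -0.42 ± 0.23, -0.30 ± 0.22 and -0.13 ± 0.26, with groups that overlapped. These 3 genes carry the ER stress element in the windows above, and their lines were not ordered alike: Hspa5 was highest in wild-type 2, Hsp90b1 in FoxO-null 3 and Dnajc3 in wild-type 3.

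Dnajb9, a J protein that the unfolded protein response induces strongly, read 213, 216 and 129 against 181, 150.4 and 191, with the highest and the lowest value both in FoxO-null lines (0.067 ± 0.20). Dnajb11, a BiP partner, was at -0.14 ± 0.21 with 387 in wild-type 3 and 199 to 270.5 in the other lines. Dnajc10, a disulfide reductase, was at -0.13 ± 0.15. A further Dnajc10 probe set was at -0.34 ± 0.14 with all FoxO-null arrays below the wild-type arrays. Another was at -0.47 ± 0.18 with groups that overlapped. Dnajb14, an ER membrane J protein, was the one ER member whose groups did not overlap, at 115, 129 and 129.8 against 152, 152 and 134 (-0.22 ± 0.15, limma adjusted p 0.654). Its second probe set parted the groups in the opposite order, at 0.47 ± 0.22, so the direction of Dnajb14 is uncertain. Hspa13 and Dnajc1 were positive, at 0.19 ± 0.14 and 0.11 ± 0.16, and Dnajb12 was at -0.071 ± 0.16. The mean over all Hspa13 probe sets had the opposite sign, -0.28. Leaving out wild-type 2 moved the ER median to -0.11. It was -0.025 with wild-type 1 left out and 0.025 with wild-type 3 left out, and 5 of 10 members were negative in either case. With the mean over all probe sets the ER median was -0.099, and 6 of 10 members were negative. Among 27 further genes of ER folding and the unfolded protein response, 18 were positive and 9 negative, with a median of 0.037. None passed over all genes in limma. Only 1 (Sil1, a nucleotide exchange factor of BiP, 0.35 ± 0.15) had an unadjusted limma p under 0.05, beside 10.2% of all genes. With median centring 17 of these 27 were negative, beside 59% of all genes.

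Mitochondrial chaperones were lower in part. Hspd1, the HSP60 gene, read 3344, 3473 and 3499 in FoxO-null lines 1 to 3 and 4469, 3961 and 3914 in wild-type lines 1 to 3, with groups that did not overlap (-0.26 ± 0.11, limma adjusted p 0.437). Its neighbour Hspe1, which codes for the HSP10 lid and shares the printed promoter window, read 2056, 2127 and 1837 against 1875, 2106 and 1845, with groups that overlapped fully (0.047 ± 0.11, limma adjusted p 0.919). A second Hspe1 probe set was at -0.082 ± 0.12, and Hspe1 was at -0.021 with median centring. The difference between the 2 genes of the pair was not tested. Dnajc11, a J protein that helps shape the inner membrane, read 162, 182 and 152 against 273, 211 and 208. Its groups did not overlap (-0.46 ± 0.15, limma adjusted p 0.348), and its second probe set above background was parted in the same order (-0.32 ± 0.19).

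Hspa9, or mortalin, the HSP70 that pulls proteins into the matrix, read 1179.7, 1038 and 1248 against 1331, 1196 and 1346 with groups that overlapped in 1 place (-0.16 ± 0.11). Further Hspa9 probe sets at -0.43 ± 0.16 and -0.30 ± 0.14 had groups that did not overlap. Dnajc30 was at -0.16 ± 0.16, Dnaja3 at -0.019 ± 0.15, and Dnajc15, a J protein of the import motor, at 0.0096 ± 0.14. The median over the 7 genes was -0.16, or -0.079 without FoxO-null 1 and -0.087 without FoxO-null 2. Of 13 other genes of mitochondrial folding and import, 7 were positive and 6 negative, with a median of 0.0044. None passed over all genes in limma. Timm17a, a channel subunit of the inner membrane, was at -0.30 ± 0.11, and Hscb, a J protein of iron-sulfur cluster assembly, at 0.37 ± 0.14. Both had an unadjusted limma p under 0.05, beside 10.2% of all genes.

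Among the J proteins of other or unassigned place, 7 of 14 tested members were negative. Dnajc8, a nuclear protein found with splicing factors, read 784, 768 and 805 against 964, 904 and 915 without overlap (-0.24 ± 0.10, limma adjusted p 0.449); its second probe set was at -0.051 ± 0.12. Dnajc9, a histone chaperone of the nucleus, read 812, 960.0 and 920.3 against 1050.3, 1016 and 1015, also without overlap (-0.20 ± 0.11). Dnajc24, of diphthamide synthesis, read 151, 153 and 141 against 164, 168 and 162 (-0.14 ± 0.14), but the mean over its probe sets was 0.067. Dnajc12, a partner of aromatic amino acid hydroxylases, read 52.3, 54.7 and 62.9 against 40.6, 49.98 and 47.8 and was the one of this group with all FoxO-null arrays on top (0.26 ± 0.23). The endosomal Dnajc13 was at -0.24 ± 0.15. The remaining tested members of these places lay between -0.27 (Dnajc17) and 0.36 (Dnajc25), with groups that overlapped in the probe sets used. Among them were the intraflagellar transport protein Hspb11 (0.23 ± 0.19) and the distant HSP70 relative Hspa12a. A further Dnajc16 probe set of low signal had all FoxO-null arrays below (-0.86 ± 0.41), opposite in sign to the one used (0.29 ± 0.29). A further Dnajc28 probe set, also low, had them all on top (0.81 ± 0.50).

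Compared by place, the summed signals showed the same order in each of the 3 compartments, with unlike contributions. The 43 cytosolic members summed to 30529, 31467 and 32785 (FoxO-null 1 to 3) against 33946, 34282 and 36384 (wild-type 1 to 3), a ratio of group means of 0.906. Without Hspa8 the ratio was 0.879, and without the 7 chaperonin subunits it was 0.942 with groups that overlapped. The 7 mitochondrial members summed to 7311, 7369 and 7356 against 8610, 8044 and 7873, a ratio of 0.898. Without Hspd1 this ratio was 0.962 and FoxO-null 1 lay above wild-type 3. The 10 ER members summed to 4738, 5251 and 5212 against 5283, 5403 and 5476, a ratio of 0.941 that was 0.980 with overlapping groups once Hspa5 was left out. Over all genes tested the ratio was 1.01 and the groups overlapped. The median log2 fold changes were -0.070 in the cytosol (-0.19 for the members that are not J proteins, and -0.11 for all without FoxO-null 2 or without wild-type 1), -0.046 in the ER and -0.16 in mitochondria. No test of the difference between compartments was made, and the pooled within-group SD of the array medians, 0.041, 0.076 and 0.070 in that order, is of the size of the differences between these 3 medians.

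**Figure D4:**
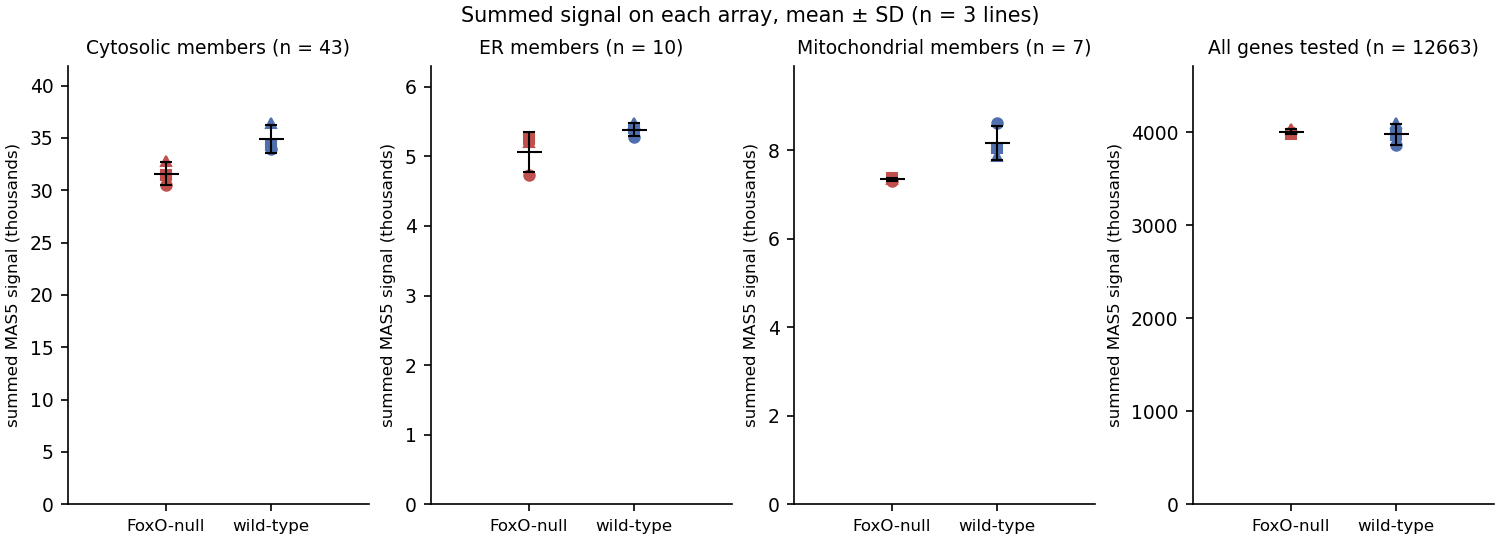
Summed MAS5 signal (y axis, from 0) of the 43 cytosolic, 10 ER and 7 mitochondrial members and of the 12663 genes tested, on each of the 6 arrays, with black bars for mean ± SD of 3 lines per group. The sums of the members are lower in the lines labelled FoxO-null in all 3 compartments (ratios of 0.906, 0.941 and 0.898), and the sums over all genes overlap.

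The co-chaperones of the cytosol leaned the same way as the chaperones they serve, in a list that also holds the chaperonin subunit Tcp1. Of 25 tested genes, 20 were negative, beside 48.2% of all genes, with a median of -0.16. All FoxO-null arrays lay below the wild-type arrays in 7, against 7.93% of all genes. Tcp1, already counted with the chaperonin subunits, was 1 of these 7. None of the 25 passed over all genes in limma, and 4 had an unadjusted limma p under 0.05, all lower, beside 4.9% of all genes. Without FoxO-null 1 that count was 1, beside 412 of 12629 genes. Without FoxO-null 2 it was 0, beside 625 of 12655 genes. With the mean over all probe sets, 18 of 25 were negative, beside 47.8% of all genes. By that measure 4 had all FoxO-null arrays below the wild-type arrays, against 7.8% of all genes. Stip1, or HOP, which hands clients from HSP70 to HSP90, read 395, 401 and 514 against 568, 611 and 517 (-0.38 ± 0.13, limma adjusted p 0.371). Ahsa1, the activator of the HSP90 ATPase, read 685, 676 and 743 against 839, 785 and 877 (-0.25 ± 0.11, limma adjusted p 0.455). The other members with an unadjusted p under 0.05 were Tomm34, at -0.32 ± 0.13, and Tcp1. Pfdn5, a prefoldin subunit that delivers proteins to CCT, was the one with all FoxO-null arrays on top (0.25 ± 0.12). Of the 4 tested heat shock regulators, Hsf2bp and Hsf4 passed the filter on low signals only through the FoxO-null arrays, since their wild-type means (13.4 and 15.3) were under it. None of the 4 passed over all genes in limma. Hsf2bp, a binding partner of HSF2, was low, at 32.5, 29.8 and 43.5 against 16.2, 15.96 and 8.13 (1.10 ± 0.38, limma adjusted p 0.356), and wild-type 3 lay under its background. Hsbp1, a small protein that binds HSF1, read 1749, 1658 and 1778 against 1390.4, 1459 and 1422, with groups far apart (0.28 ± 0.10, limma adjusted p 0.371), and Hsf2 was at 0.36 ± 0.24. Hsf4 was above background on 4 of 6 arrays, at 0.56 ± 0.53 with groups that overlapped.

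Cell division genes were also lower in the lines labelled FoxO-null. All 14 tested genes of that list were negative, with a median of -0.40 and a smallest limma adjusted p of 0.179, and 11 had an unadjusted limma p under 0.05 (4.9% of all genes were lower by that measure). This count was 6 when FoxO-null 1 or wild-type 3 was left out, with the mean over all probe sets and with no intensity trend. Over all genes the lower calls were then 412 of 12629, 572 of 12606, 569 of 11804 and 485 of 12663, in that order. The summed signal lay between 13667 and 15593 on the FoxO-null arrays and between 17993 and 19752 on the wild-type arrays. Glial marker sums were higher, with overlap for astrocytes. The summed signal of 5 astrocyte markers was between 2833 and 3643 against 2170.2 and 3057, and most of it came from Aldh1l1. Singly, Aqp4 (0.94 ± 0.19, limma adjusted p 0.137) and Gfap (0.36 ± 0.19) had all FoxO-null arrays on top, beside 8.08% of all genes. Slc1a2 (0.39 ± 0.15), Aldh1l1 (0.27 ± 0.18) and S100b (-0.0084 ± 0.29) had groups that overlapped. The summed signal of 4 oligodendrocyte markers was between 4386 and 5069 against 2566 and 3791, and almost all of it came from Mbp. Of the other oligodendrocyte markers, Mag and Mobp had groups that overlapped, and Mog was at or under background on all arrays. Neuron marker sums, most of which came from Map2, overlapped, at 1351 to 1385 against 1291 to 1597. In that list Tubb3 (-0.64 ± 0.27, unadjusted limma p 0.0397, adjusted p 0.455) and Syt1 (-0.43 ± 0.26) had all FoxO-null arrays below the wild-type arrays. Of 9 neural stem cell markers, 7 were positive, with a median of 0.27. The negative ones were Nes (-0.36 ± 0.17) and Vim (-0.079 ± 0.15), with groups that overlapped. Hes5, Slc1a3, Msi1 and Prom1 were higher with an unadjusted limma p under 0.05, beside 5.31% of all genes. These genes had all FoxO-null arrays on top, beside 8.08% of all genes. Hes5, a Notch target, passed over all genes (1.41 ± 0.15, limma adjusted p 0.0163). Of the defining markers of microglia, endothelium and fibroblasts, 3 of 5, 2 of 4 and 1 of 4 were at or under background on all arrays, and the sums of these lists did not exceed 100.2 on any array. The part of cell division or of stem, glial or neuronal cells in the chaperone values was not tested.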

How the data were processed

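Total RNA of 6 lines was hybridised to 6 arrays. The authors deposited 1 intensity per probe set and array; the submitters' processing notes name MAS5 as the method, without a version. The mean after trimming 2% at each end was 100.0 on every array, so the scaling was kept. Of 45101 probe sets, 34945 were named for 1 gene. An offset of 5.94 (the 20th percentile of all signals) was added before log2, and genes under the 40th percentile (a signal of 16.2) were left out. All 12663 genes were fitted with limma 3.58.1 (intensity trend, R 4.3.3), two-sided, with Benjamini-Hochberg adjustment over all of them. On simulated data of this comparison, over 12663 genes, the fit recovered 66.5% of 2-fold and 92.8% of 4-fold changes, with 6.25% false calls. An exact permutation test of 3 lines against 3 cannot give p under 0.1, and the number of arrays limits the precision. Probe sets other than the one that stood for a gene were read from a fit of all probe sets that are not controls. Background on an array was the highest of 27 bacterial control probe sets.

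Members, lists, compartments and alternatives were chosen with earlier results of these data known. The rule for named genes took core members, the 4 of smallest p per compartment, members with groups that do not overlap, and up to 4 per other list. Line numbers are shared by the groups: deviations of lines with the same number correlated at 0.023, 0.092 and 0.12, so they were not taken as pairs. Compartments follow textbook knowledge. Promoter windows and motif counts come from RefSeq (GRCm38.p6).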

Additional observations from a re-analysis of the deposited data

How the results depend on the processing

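Under each of the 16 alternatives, the number of members past the limma threshold was 0. The count of 5 genes past the threshold became 1 with an offset of 1, no filter, quantile normalization or the mean over all probe sets, 0 with median centring or no intensity trend, and 0 to 13 when 1 array was left out (0 lacking FoxO-null 1, 1 lacking FoxO-null 3, 3 lacking either of wild-type 1 and 2, and 13 lacking wild-type 3). With the replicate block, where lines share only a number, it was 6, and no member changed its side of the threshold. At an unadjusted p, all genes gave 810 to 1318 when 1 array was left out; the members gave 3 with no intensity trend and 4 to 9 when 1 array was left out. The cytosolic median was -0.11 with genes under the 60th percentile left out, -0.14 with median centring and -0.11 to -0.052 when 1 array was left out; the ER median was then -0.11 to 0.025 and the mitochondrial median -0.22 to -0.079. Some small differences changed sign, and the cause was not tested: Hspa8 was -0.048 and Dnajb1 0.0015 with quantile normalization; Hspa8 was -0.026, Dnajb9 -0.0012 and Hspe1 -0.021 with median centring; and with the mean over all probe sets Hspb1 was 0.0050, Hspe1 -0.018, Dnajb14 0.12, Hspa13 -0.28 and Dnajc24 0.067. When 1 array was left out, the ranges were -0.055 to 0.20 for Hspa8, -0.44 to 0.61 for Hspa1a, -0.84 to 0.30 for Hspa1b, -0.69 to 0.050 for Hspb1, -0.052 to 0.032 for Dnajb1, -0.16 to 0.12 for Hsp90b1, -0.055 to 0.30 for Dnajb9 and -0.11 to 0.15 for Dnajc3. Of 84 further probe sets of tested members above background on at least 4 arrays, 24 had the opposite sign to the one used.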
